A study of Mus musculus with 12 samples.

Results

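The genes of arginine metabolism were followed cell type by cell type in the liver of newborn mice with anemia and of their controls. The set held 9 genes, all found by symbol among the 32285 genes of the count tables: the urea cycle enzymes Cps1, Otc, Ass1, Asl and Arg1, the second arginase Arg2, the nitric oxide synthases Nos2 and Nos3, and ornithine decarboxylase Odc1. The livers came from C57BL/6J pups, which all had the same genotype and carried no transgene. In the anemia group, 6 pups lost blood by phlebotomy, 20 µL per g of body weight at each bleed, from postnatal day 2 to day 10, and the liver was taken 24 h after the last bleed, at day 11. The 6 control pups were handled in the same way and given a needle stick that drew no blood. Each liver gave 1 droplet library of single cells, so each value below comes from 1 mouse and n is 6 in each group. Judged by Xist and Y-linked transcripts, 4 control pups but only 2 anemic pups were females. Sex and group therefore overlapped in part, and a Y-linked covariate was run as an alternative.

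The urea cycle turns ammonia, which is toxic, into urea. In the mitochondria of hepatocytes, carbamoyl phosphate synthetase (Cps1) fixes ammonia and ornithine transcarbamylase (Otc) joins the product to ornithine, and in the cytosol argininosuccinate synthase (Ass1) and argininosuccinate lyase (Asl) build arginine, which arginase (Arg1) splits into urea and ornithine. In adult liver the cycle runs mainly in hepatocytes near the portal vein, while hepatocytes around the central vein carry glutamine synthetase (Glul) and capture what ammonia is left. Outside hepatocytes, arginine is shared between arginases and nitric oxide synthases: Arg2 is the mitochondrial arginase, Nos2 the inducible synthase of activated myeloid cells, Nos3 the synthase of endothelium, and Odc1 takes ornithine into polyamines. Developing erythroid cells and some myeloid cells are also known to contain arginase.

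Of 207537 cell barcodes in the 12 libraries, 206146 were kept, 98075 from controls and 108071 from anemic mice, with 46252146 to 74545930 transcript counts (unique molecular identifiers, UMIs) in a library. The cells fell into 56 clusters, and 15 cell classes were named from marker genes, which left 7.09% of control cells and 8.65% of anemic cells without a name. Pairs of libraries shared 56 to 122 barcode sequences, at most 0.69%. The libraries anemia 2 and anemia 3 stood apart from the other anemic mice: cluster 52, with 2560 monocyte-like cells, drew 2193 of them from anemia 2 and 339 from anemia 3, and the main macrophage cluster held 25 cells of anemia 2 and 248 of anemia 3 where the other mice had 611 to 1408. Where leaving out both mice changed a call of a member, the value without them is given. The hepatocyte-like class was named from 8 marker genes, so their levels describe the class and do not check its name. Their summed level in the other 14 classes was 1.22% to 4.31% of the hepatocyte-like level.

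The member genes lie on the mouse assembly GRCm38 and are all protein coding. Cps1 spans chr1:67123026-67231259 on the plus strand, Otc chrX:10252305-10321024 on the plus strand, Ass1 chr2:31470207-31520672 on the plus strand, Asl chr5:130011258-130029247 on the minus strand and Arg1 chr10:24915221-24927484 on the minus strand. Arg2 spans chr12:79130777-79156301, Nos2 chr11:78920787-78960254, Nos3 chr5:24364810-24384474 and Odc1 chr12:17544794-17551505, all on the plus strand. Arg2 overlaps Gm48780 and Vti1b on the other strand, Nos3 overlaps Gm15587 and Atg9b on the other strand, and Odc1 holds the small RNA gene Gm22748.

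Promoter sequences were to hand for 3 of the 9 members, Ass1, Odc1 and Otc, from 250 bases before to 50 bases after the gene start in RefSeq (GRCm38.p6). For Ass1 and Odc1 that start lies downstream of the first base of the spans given above, which come from GENCODE. The 2 sequences printed here belong to Ass1, which rose in hepatocyte-like cells, and to Odc1, which rose in endothelial-like cells, at chr2:31470020-31470319 and chr12:17544623-17544922, both on the plus strand. Capitals mark the motifs found among 7 that were searched on both strands.
Ass1 promoter: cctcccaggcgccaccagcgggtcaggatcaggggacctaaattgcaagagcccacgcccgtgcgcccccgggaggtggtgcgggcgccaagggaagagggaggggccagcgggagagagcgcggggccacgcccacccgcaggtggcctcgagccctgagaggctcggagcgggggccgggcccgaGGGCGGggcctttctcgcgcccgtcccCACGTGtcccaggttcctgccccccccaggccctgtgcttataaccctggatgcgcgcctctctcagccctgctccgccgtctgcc
Odc1 promoter: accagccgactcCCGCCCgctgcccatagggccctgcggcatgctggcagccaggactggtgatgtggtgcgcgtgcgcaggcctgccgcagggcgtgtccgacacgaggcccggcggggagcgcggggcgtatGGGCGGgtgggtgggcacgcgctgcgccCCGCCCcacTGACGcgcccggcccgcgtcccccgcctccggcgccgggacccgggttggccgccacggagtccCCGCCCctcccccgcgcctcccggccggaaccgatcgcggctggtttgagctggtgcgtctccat
The Ass1 promoter held 1 GC box (GGGCGG), which 35.9% of 27025 promoters hold, and 1 E-box (CACGTG), which 7.24% hold. The 2 matches to ACGTG, present in 19.7% of promoters, lay inside that E-box. The Odc1 promoter held 4 GC boxes and 1 match to TGACG, which 21% of promoters hold. The Otc promoter held no match to those motifs, to TATAAA (14.2% of promoters), to CCAAT (37.9%) or to TTGCNNAA (10.8%), and neither did the other 2 hold the last 3.

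The 9 genes divided among the cell classes by role. Levels are given as CPM, the UMIs of a gene per 1000000 UMIs of a class in a mouse, averaged over the 12 mice, and are compared here between classes for the same gene only. The 5 urea cycle enzymes had their highest level in hepatocyte-like cells, which were 8.83% of cells and carried 77.3% of the Otc UMIs, 76.3% of those of Cps1, 72.3% of those of Arg1, 62.8% of those of Ass1 and 44.6% of those of Asl. Arg1 stood at 472 CPM in hepatocyte-like cells and 14.5 CPM in the next class, the B-like cells, Cps1 at 949 against 37.0 CPM in erythroid-like cells and Otc at 494 against 16.9 CPM in B-like cells. Each of these 3 gaps passed an exact sign-flip test over the 12 mice (two-sided, adjusted p = 0.00684 over the 126 pairs of neighbouring classes). That is the smallest adjusted value among the pairs, of which 17 passed.

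Ass1 and Asl reached further beyond the hepatocytes. After hepatocyte-like cells at 2254 CPM, Ass1 stood at 141 CPM in T-like, 133 in monocyte-like, 129 in conventional dendritic-like and 120 in B-like cells, and none of the steps among these 4 classes passed the test. Asl stood at 252 CPM in hepatocyte-like cells and at 31.6 CPM in monocyte-like, 30.8 in cholangiocyte-like and 29.0 in conventional dendritic-like cells, again with no step among the last 3 that passed.

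Arg2, by contrast, was a gene of myeloid cells. Its mean level was 170 CPM in neutrophil-like, 86.6 in monocyte-like, 57.8 in macrophage-like and 6.17 CPM in basophil or mast-like cells, and each of these 3 steps passed the exact sign-flip test (adjusted p = 0.0123, 0.0410 and 0.00684). Nos3 was highest in endothelial-like cells, which were 12.6% of cells and carried 76.4% of its UMIs, at 57.3 CPM against 21.2 CPM in stellate-like cells (exact test, adjusted p = 0.00684). The stellate-like value fell to 3.74 CPM when cells called doublets, 61.2% of that class, were left out, and the summed level of endothelial markers in that class fell from 3301 to 797 CPM with it. Odc1 was also highest in endothelial-like cells, at 126 CPM against 92.6 CPM in stellate-like cells (exact test, adjusted p = 0.00684), and was measured in every class. The stellate-like value fell to 48.6 CPM without doublets, below the 62.9 CPM of conventional dendritic-like cells. Nos2 had only 3888 UMIs in all cells, and monocyte-like cells at 13.1 CPM and endothelial-like cells at 2.30 CPM were not told apart (exact test, adjusted p = 0.874).

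**Figure D1:**
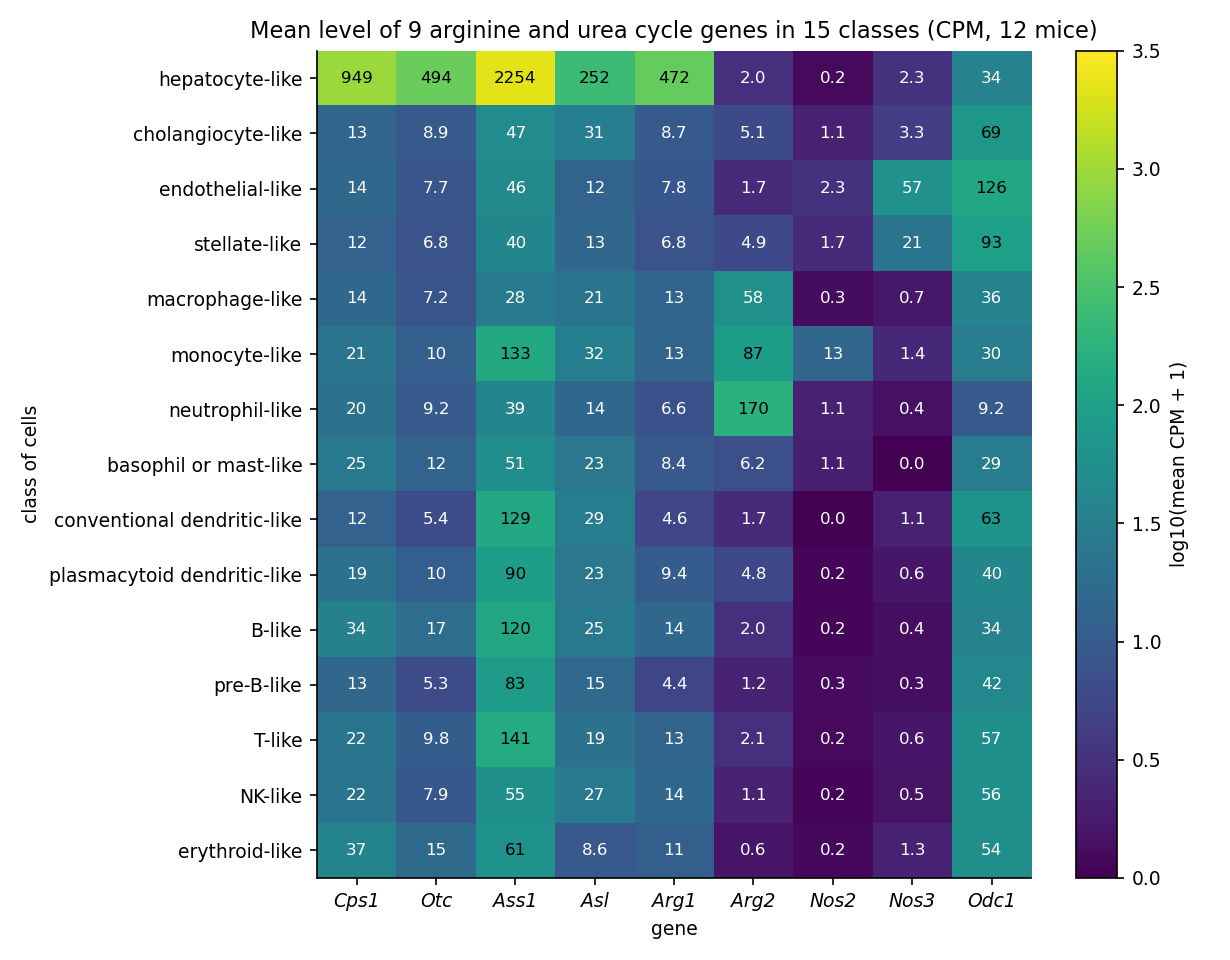
Mean level of the 9 genes (columns) in 15 named cell classes (rows), as the mean CPM over 12 mice, printed in each cell and coloured by log10(mean CPM + 1). The 5 urea cycle genes peak in the hepatocyte-like row, Arg2 in the neutrophil-like row and Nos3 and Odc1 in the endothelial-like row.

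Hepatocyte transcripts were counted in every class, so the level of each urea cycle gene outside hepatocytes was set beside the level that the hepatocyte marker RNA in the same class and mouse would carry if it brought the gene along in the ratio seen in hepatocyte-like cells. Cps1 was measured at 0.88 to 1.12 times and Otc at 0.75 to 1.10 times that level in 13 of the 14 other classes, and at 0.311 and 0.413 times in cholangiocyte-like cells. In erythroid-like cells the ratio over the 12 mice was 1.02 for Cps1, 0.831 for Otc, 0.767 for Arg1, 0.893 for Ass1 and 1.04 for Asl. The Cps1 ratio pools groups that differed, with 43.7 CPM measured against 53.3 CPM expected in controls and 30.2 against 19.1 CPM in anemic mice. Every other class but cholangiocyte-like cells had the same order, with Cps1 below the expected level in controls and above it in anemic mice. NK-like cells had 23.3 against 28.4 and 21.0 against 12.9 CPM, and B-like cells 34.2 against 48.3 and 33.3 against 28.1 CPM. Pre-B-like cells had 13.6 against 15.7 and 12.9 against 7.94 CPM. The Cps1 ratios of 0.88 to 1.12 are thus averages over 2 groups that lay on opposite sides of the expected level. Arg1 stood above the expected level in macrophage-like cells, 2.36 times on average and in 12 of 12 mice. It was also above it in NK-like (1.64 times) and T-like cells (1.55 times), in 11 of 12 mice each. In the other classes Arg1 ran from 0.409 times in cholangiocyte-like to 1.36 times in monocyte-like cells. Ass1 stood above it in conventional dendritic-like (4.83 times), T-like (3.44), pre-B-like (3.43), monocyte-like (2.84) and plasmacytoid dendritic-like cells (2.12), in 12 of 12 mice each. In B-like cells Ass1 was nearer to it, at 120 CPM measured against 80.5 CPM expected (1.48 times, above it in 11 of 12 mice). Asl stood at 2.65 to 9.33 times in the classes other than erythroid-like cells. These ratios are descriptions, since the source of the hepatocyte RNA was not tested.

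**Figure D2:**
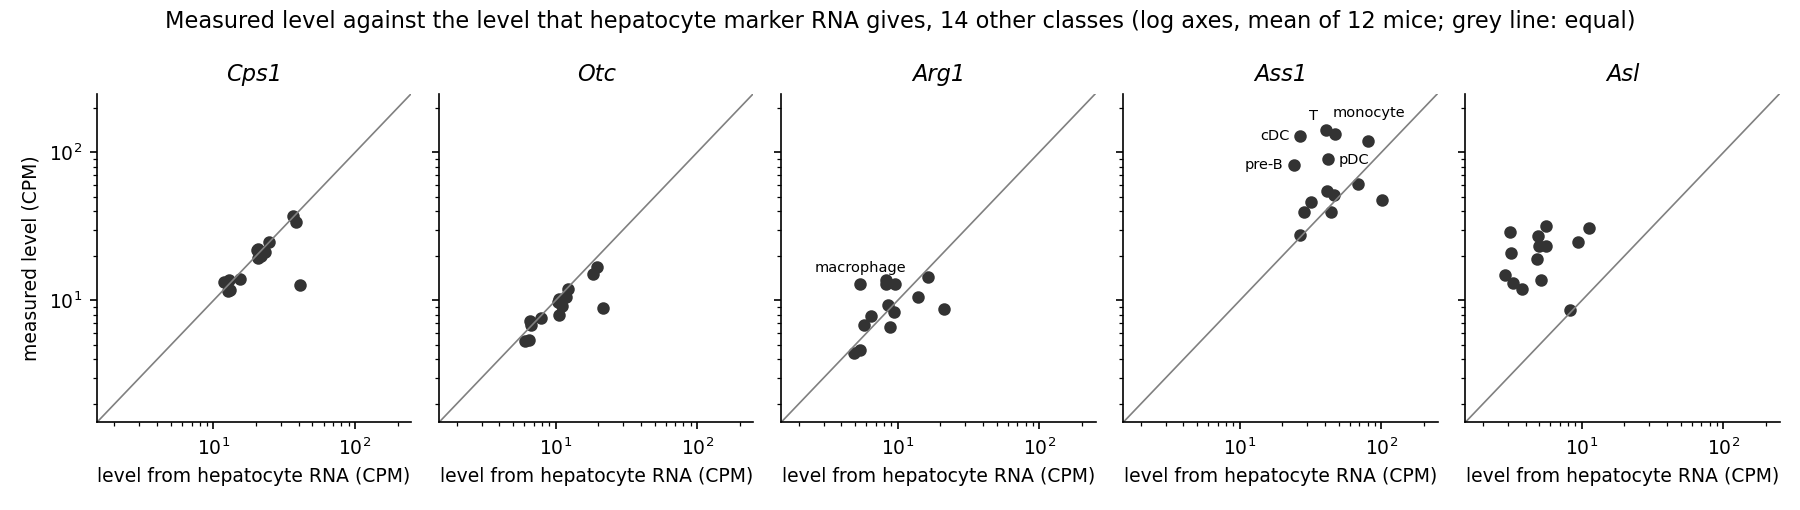
Measured level (vertical axis, CPM, log scale) of Cps1, Otc, Arg1, Ass1 and Asl against the level expected from hepatocyte marker RNA (horizontal axis, CPM, log scale), 1 point for each of 14 classes other than hepatocyte-like cells, averaged over 12 mice. Points on the diagonal line carry the gene in the same ratio to hepatocyte markers as hepatocyte-like cells do. Averaged over both groups, Cps1 and Otc lie along the line except in cholangiocyte-like cells, and most Asl points lie above it.

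The first comparison asked which of the genes differed between anemic and control mice in hepatocyte-like cells. Ass1, Asl and Arg1, the enzymes of the later, cytosolic steps, rose about 2- to 3-fold, and in each of them every anemic mouse lay above every control. Over the class, Otc rose less and with less certainty, and Cps1, the entry enzyme, did not pass the test. Single clusters, given below, differed from this: Cps1 stood higher in anemia in each of them, with no test, and Otc passed in none. The class had 18200 cells, 712 to 2813 per mouse, and 1499876 to 4679231 UMIs per mouse.

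Arg1 had 209.5, 254.1 and 333.1 CPM as the lowest, median and highest of the controls and 577.9, 690.6 and 771.4 CPM in the anemic mice. All 6 anemic mice were above all 6 controls, with means of 256 ± 42.8 and 688 ± 84.3 CPM (SD, n = 6 in each group). The log2 fold change was 1.69 ± 0.117 (SE), a 3.23-fold rise (edgeR quasi-likelihood test with Benjamini-Hochberg adjustment, adjusted p = 4.09e-08).

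Ass1, which makes argininosuccinate, had 780.8, 1252 and 1844 CPM in controls and 2795, 3077 and 3780 CPM in anemic mice. The groups did not overlap, and their means were 1294 ± 344 and 3214 ± 423 CPM. The rise was 2.99-fold, with a log2 fold change of 1.58 ± 0.162 (SE; edgeR adjusted p = 1.23e-06). Asl, the next enzyme, had 152.9, 175.3 and 216.9 CPM in controls and 232.8, 319.6 and 416.5 CPM in anemic mice, again without overlap. It rose 2.22-fold, by 1.15 ± 0.139 on the log2 scale (edgeR adjusted p = 5.72e-06).

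For the mitochondrial enzymes the fold changes in the class were smaller, and the difference between enzymes was not tested. Otc had 380.7, 475.4 and 506.7 CPM in controls and 404.2, 541.1 and 598 CPM in anemic mice, so the groups overlapped, and its log2 fold change was 0.46 ± 0.123 (SE; edgeR adjusted p = 0.00501). Of 12 alternatives, 10 called it, and it was not called without trimmed-mean (TMM) scaling factors, at 0.12 (edgeR adjusted p = 0.357), or without cells called doublets, at 0.23 (edgeR adjusted p = 0.0799). Cps1 had 899.9, 942.6 and 1171 CPM in controls and 649.1, 961.7 and 1141 CPM in anemic mice, with a log2 fold change of 0.20 ± 0.138 (SE; edgeR adjusted p = 0.233). The lowest anemic value lay under every control and the highest near the top control, so the anemic mice spread around the controls. Without anemia 2 and anemia 3, Cps1 passed the test at 0.32 (edgeR adjusted p = 0.0232), as it did in cells with at most 10% mitochondrial UMIs, at 0.55 (edgeR adjusted p = 0.00158), while its sign turned without TMM factors (-0.14) and without doublets (-0.081).

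**Figure D3:**
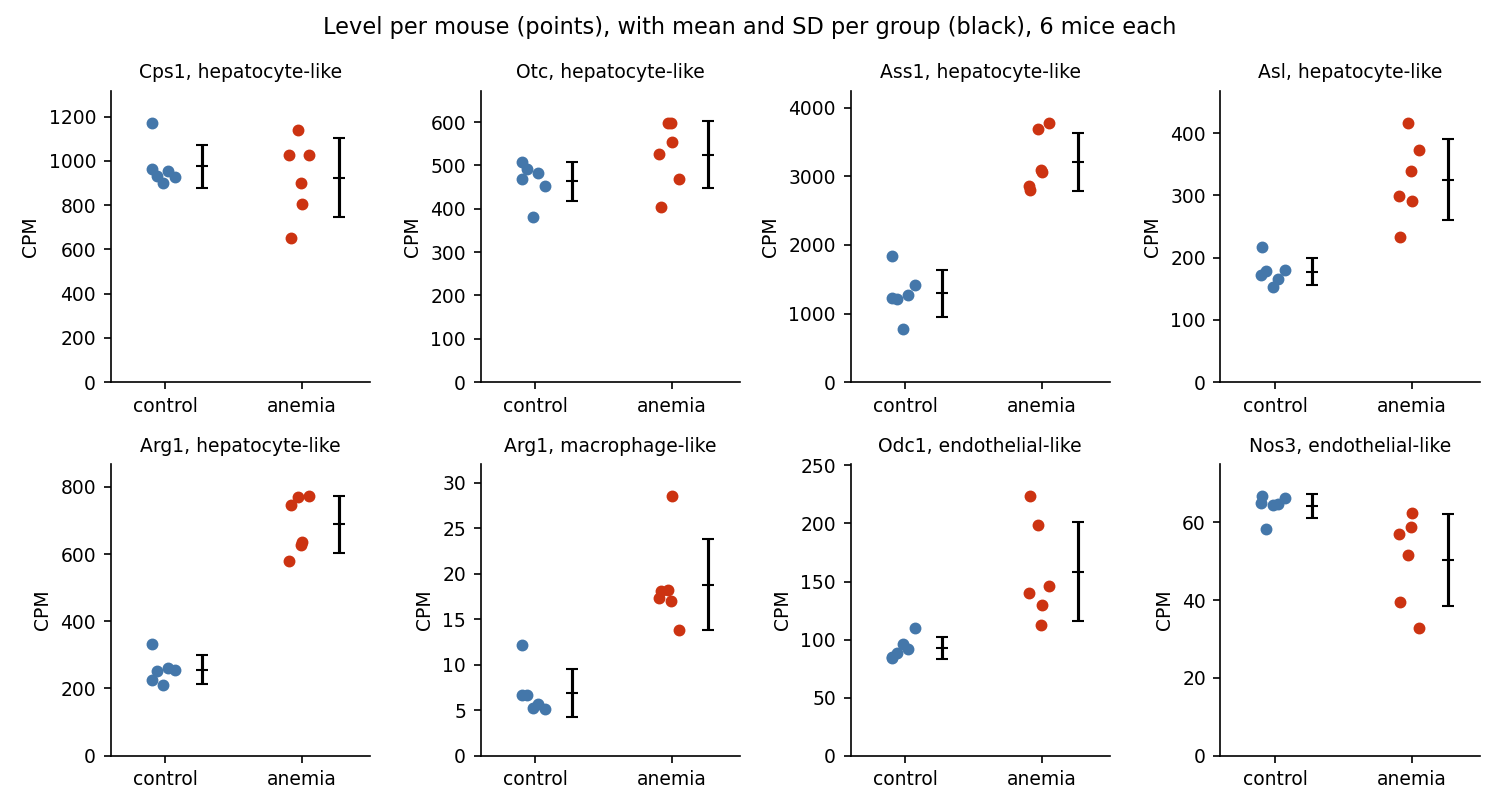
Level in CPM (vertical axes, from 0) of Cps1, Otc, Ass1, Asl and Arg1 in hepatocyte-like cells, Arg1 in macrophage-like cells, and Odc1 and Nos3 in endothelial-like cells, 1 point per mouse, with the mean and SD of 6 control and 6 anemic mice in black. The groups do not overlap for Ass1, Asl and both panels of Arg1, nor for Odc1, and they overlap for Cps1, Otc and Nos3.

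Among the other members, Odc1 had 29.9 to 44.9 CPM in control and 25.4 to 36.7 CPM in anemic hepatocyte-like cells, with a log2 fold change of 0.02 ± 0.111 (SE; edgeR adjusted p = 0.910). Its sign depended on scaling, at -0.32 without TMM factors (edgeR adjusted p = 0.0250). Arg2 had 72 UMIs in the whole class, of which 15 were left without doublets, Nos3 had 88 UMIs and Nos2 had 8. Without anemia 2 and anemia 3, Nos3 was called lower at -1.19 and Arg2 at -1.08 (edgeR adjusted p = 0.0311 and 0.0260), and both were also called lower without TMM factors, at -1.29 and -0.97, from these few UMIs and beside the lower endothelial markers given below for the class. In all, 4 of the 8 members tested were called and all 4 were higher in anemia.

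These counts stand against a broad background, since 53% of the 12190 genes tested in hepatocyte-like cells were called. Of all genes, 25.7% were higher and 27.3% lower in anemia, and in 7.95% every anemic mouse lay above every control, as in Ass1, Asl and Arg1. The median log2 fold change was 0.33 over the 8 members and -0.06 over all genes. Without TMM factors the median of all genes was -0.40, and 1583 genes were called higher and 5539 lower, in place of 3134 and 3322. Arg1, Ass1 and Asl kept their calls on that scale too, at 1.36, 1.25 and 0.81.

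**Figure D4:**
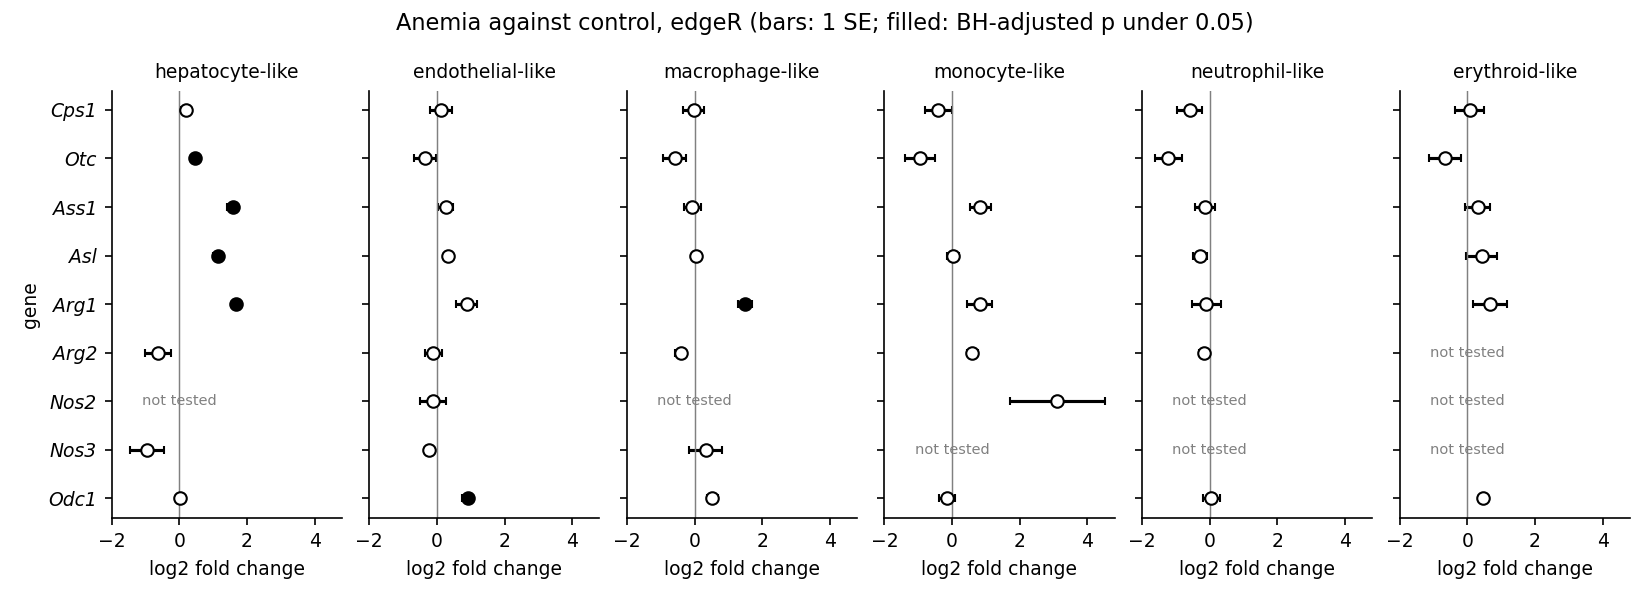
Log2 fold change of anemia over control (horizontal axis, TMM scale) with 1 SE on either side, for the members tested in each of 6 cell classes, 1 panel per class. Filled points have an adjusted p under 0.05: Arg1, Ass1, Asl and Otc in hepatocyte-like cells, Arg1 in macrophage-like cells and Odc1 in endothelial-like cells.

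Other measures moved with the group in hepatocyte-like cells. The mitochondrial share of UMIs was 9.83% to 11.0% in controls and 3.32% to 6.85% in anemic mice, and the mean UMIs per cell were 2556 ± 290 and 1931 ± 185. The summed level of 10 erythroid markers in the class was 1630 to 7741 CPM in controls and 8271 to 32061 CPM in anemic mice, with 10 of 10 markers higher, while that of 8 endothelial markers was 441 to 693 and 82.5 to 287 CPM, with 0 of 8 higher. The 8 hepatocyte markers summed to 113045 to 123209 CPM and 79782 to 121225 CPM. Arg1, Ass1 and Asl rose by 1.70, 1.27 and 1.17 on the log2 scale in cells with at most 10% mitochondrial UMIs and by 1.51, 1.36 and 0.94 without doublets, all called.

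The class also drew on different clusters in the 2 groups. Cluster 6, led by Uox, Gnmt, Ttc36, Fabp1 and Ass1, held 1553 control and 4400 anemic cells, cluster 23, led by Apob, Cps1 and Itih2, held 2419 and 1339, cluster 25 held 1259 and 1566, and cluster 26 held 2461 and 3203. Since Ass1 and Cps1 helped to define these clusters, their levels within them are descriptive. Cps1 had its highest level in cluster 23, at means of 1556 CPM in controls and 2967 CPM in anemic mice, and its lowest in cluster 6, at 174 and 318 CPM. Ass1 had the reverse order, at 463 and 920 CPM in cluster 23 and 3532 and 5473 CPM in cluster 6.

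Within the clusters, the log2 difference of Cps1 between anemic and control mice was 0.99 in cluster 6, 1.04 in cluster 23, 0.64 in cluster 25 and 0.68 in cluster 26, and that of Ass1 was 0.59 to 1.10. Both are given with no test, since the clusters were formed on these genes too. Arg1 rose in each of the 4 clusters by 1.09 to 1.62, all called. Asl rose by 0.73, 1.22 and 0.58 in clusters 6, 23 and 25, and stood at 0.46 in cluster 26 (edgeR adjusted p = 0.131). Otc passed in none of the clusters, with log2 fold changes of -0.07, 0.21, -0.14 and -0.09 in clusters 6, 23, 25 and 26, and Odc1 in none either. The background share of genes called was 4.27% in cluster 6, 7.5% in cluster 23, 7.22% in cluster 25 and 4.63% in cluster 26.

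The next comparison sorted cells by Glul, the glutamine synthetase of hepatocytes around the central vein. No other gene of that zone was examined and the split was not made within single clusters, so it is not read as a position. Hepatocyte-like cells were split into 3513 with a Glul UMI and 14687 without one, and the levels were compared within each of the 12 mice. All 5 urea cycle enzymes were lower in the cells with Glul, and Odc1 was higher. Ass1 had 1286 CPM with and 2672 CPM without Glul, and Arg1 had 285 and 552 CPM, which are mean log2 differences of -1.14 and -0.97, lower in 12 of 12 mice (exact sign-flip test, adjusted over all genes tested, p = 0.00269 each). Otc had 375 and 552 CPM and Asl 190 and 277 CPM, also lower in 12 of 12 mice (exact test, adjusted p = 0.00269 each). The cells with Glul were deeper, with a median over mice of 3788 UMIs per cell against 1800, and the differences were called in cells of at least 1000 UMIs for the same 8 genes as in all cells.

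These calls also stand against a broad background, since 50.4% of the 12189 genes tested differed between cells with and without Glul, 39.6% higher and 10.9% lower with it. All 8 members tested were called, 5 of them lower, with a median log2 difference of -0.36 against 0.26 over all genes. Without doublets 18.2% of all genes and 5 of the 8 members were called, and the medians were -0.19 over the members and -0.0043 over all genes.

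Cps1 showed the smallest such difference, 864 CPM with and 995 CPM without Glul (exact test, adjusted p = 0.0161), lower in 10 of 12 mice, and without doublets it turned to 0.083 (exact test, adjusted p = 0.596). Odc1 had 42.8 CPM with and 30.0 CPM without Glul, a log2 difference of 0.49 that was positive in 11 of 12 mice (exact test, adjusted p = 0.00396). Arg2 and Nos3 were also higher with Glul, by 1.22 and 1.11 (exact test, adjusted p = 0.0109 and 0.0318), from very few UMIs, and without doublets the differences were 0.018 and 0.091. The Arg1 difference was -0.97 in controls and -0.96 in anemic mice, that of Ass1 -1.30 and -0.98 and that of Asl -0.40 and -0.64, and whether they differed between groups was not tested.

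The partners of the cycle were read from 5 lists with 57 genes in all, of which 55 were tested in hepatocyte-like cells, 25 called higher and 11 lower in anemia. Of all genes tested there, 25.7% were higher and 27.3% lower, which is the background for each list below. The median log2 fold change of the list genes was 0.25, against -0.06 over all genes. Of the 36 calls, 18 held under every alternative in which the gene was tested, 11 were lost without TMM factors and 10 without doublets. Without TMM factors 14 list genes were higher and 18 lower, with a median of -0.09 against -0.40 over all genes. On that scale 1583 of all 12190 genes were higher and 5539 lower.

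Of the 11 genes that feed the cycle, 7 were higher and 2 lower with TMM factors, with a median of 0.39, and 3 were higher and 3 lower without them. Those called higher with TMM factors were Got1 (1.42) and Got2 (0.70), the aspartate aminotransferases, Nags (0.86), which makes the activator of Cps1, Gls2 (0.62), which frees ammonia from glutamine, Glud1 (0.40), glutamate dehydrogenase, and the mitochondrial carriers Slc25a13 (0.39) for aspartate and Slc25a15 (0.36) for ornithine, as log2 fold changes, and of these Got1, Got2 and Nags were also called higher without the factors. The lower ones were Aqp9 (-1.06), a channel for glycerol and urea, and the glutamine transporter Slc38a3 (-0.34). Slc38a3 was called in only 6 of 12 alternatives and lost its call in 7 of the fits with 1 mouse left out. Of 6 regulators of the cycle only the transcription factor Cebpb was called (1.09), and their median was 0.02.

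Of 13 polyamine genes, 10 were higher and 2 lower with TMM factors, beside 25.7% and 27.3% of all genes, with a median of 0.56. Without the factors 5 were higher and 2 lower. The largest log2 fold change was that of spermine oxidase, Smox (1.42), followed by Eif5a (0.96), the protein that carries the spermidine-derived residue hypusine, antizyme Oaz1 (0.84), which restrains ornithine decarboxylase, and the synthases Srm (0.80) and Sms (0.79). Paox (0.67), Dohh (0.56), Mtap (0.51), Sat1 (0.45) and Dhps (0.39) were the other genes that rose, and these 5 lost their calls without TMM factors, while Oaz2 (-0.44) and the antizyme inhibitor Azin1 (-0.38) fell. Dhps was called in only 6 of 11 alternatives, Oaz2 in 7 of 11 and Paox in 7 of 12.

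Genes of arginine transport and nitric oxide were split, with 5 of 15 higher, 5 lower and a median of 0.04, beside 25.7% higher and 27.3% lower of all genes. Those that rose were Qdpr (1.04), Gch1 (0.78), Spr (0.66) and Pts (0.66), which make or recycle the cofactor tetrahydrobiopterin, and Ddah1 (0.52), which clears the inhibitor dimethylarginine. The soluble guanylate cyclase subunits Gucy1a1 (-1.79) and Gucy1b1 (-1.64) and the arginine transporters Slc7a1 (-1.44) and Slc7a7 (-0.53) fell. Slc7a7 was called in only 3 of 11 alternatives and lost its call in 10 of the fits with 1 mouse left out. Ddah2 (-0.90) also fell, and stood at 0.20 without doublets (edgeR adjusted p = 0.581). Without doublets 11 genes of this list were tested, with 5 higher and 1 lower. Gucy1a1, Gucy1b1 and Slc7a1 were each tested in 10 of the 12 alternatives. Endothelial markers in the class were also lower in anemia, as given above, and their part in these falls was not tested. Of 10 genes of ornithine, proline, glutamine and creatine metabolism, Prodh (1.53), the first enzyme of proline breakdown, and Oat (0.52), ornithine aminotransferase, rose and Gatm (-1.12), which takes arginine into creatine synthesis, fell, with a median of 0.01 over the list. Oat was called in only 7 of 12 alternatives and lost its call in 6 of the fits with 1 mouse left out.

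In macrophage-like cells, 19836 cells with 11029 from controls and 8807 from anemic mice, Arg1 rose, the only call among the 8 members tested. It had 5.11, 6.14 and 12.1 CPM as the lowest, median and highest of the controls and 13.8, 17.7 and 28.5 CPM in anemic mice. The groups did not overlap, with means of 6.90 ± 2.66 and 18.8 ± 5.01 CPM (SD, n = 6 each) and a log2 fold change of 1.49 ± 0.215 (SE; edgeR adjusted p = 0.00473). The level expected from hepatocyte marker RNA in these cells was 4.34 CPM in controls and 6.55 CPM in anemic mice, below the measured means. Without doublets the log2 fold change was 1.06 (edgeR adjusted p = 0.0670) and the ranges were 4.60 to 9.47 and 6.03 to 23.2 CPM, which overlap. Within the 3 macrophage-like clusters, Arg1 was called in cluster 1 (1.29, edgeR adjusted p = 0.0256) and not in cluster 2 (1.38, adjusted p = 0.766) or cluster 3 (0.72, adjusted p = 0.372).

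Of all genes tested in macrophage-like cells, 2.47% were called, 1.26% higher in anemia, and in 0.939% every anemic mouse lay above every control. The shares called were 2.13% in cluster 1, 0.366% in cluster 3 and 0% in cluster 2, where edgeR called 0 of 11107 genes and 671 had an unadjusted p under 0.05. Cluster 1 held 7399 control and 3412 anemic cells, and cluster 2 held 434 and 2124. The summed erythroid markers in the class were 898 to 6407 CPM in controls and 3629 to 15687 CPM in anemic mice, and the hepatocyte markers 1545 to 2445 and 278 to 1462 CPM, and the part of either in the Arg1 result was not tested beyond the values given.

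Arg2 in macrophage-like cells had 58.5, 66.0 and 78.4 CPM in controls and 25.8, 53.1 and 59.2 CPM in anemic mice, and overlapped only at the edge. Its log2 fold change was -0.41 ± 0.159 (SE; edgeR adjusted p = 0.165) and did not pass. Odc1 stood at 27.4, 30.7 and 33.1 CPM in controls and 29.7, 39.2 and 60.5 CPM in anemic mice, with 0.53 on the log2 scale (edgeR adjusted p = 0.0843). Nos2 had 44 UMIs in the whole class. Of the 55 list genes tested, Smox was called higher (0.38) and Agmat, the agmatine ureohydrolase, lower (-1.27), and neither held under every alternative. The share of all genes called in the class was 2.47%.

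Monocyte-like cells numbered 2017 in controls and 8953 in anemic mice, of which anemia 2 gave 5020 and anemia 3 gave 2333. The other anemic mice gave 301 to 505 each and the controls 272 to 514. None of the 8 members tested passed in this class, 5 had an unadjusted edgeR p under 0.05, and the lowest adjusted p was 0.115. Of all 11516 genes tested there, 0.478% were called and 1628 had an unadjusted p under 0.05. That lowest value was for Arg2, at 53.2, 73.1 and 81.6 CPM in controls and 78.0, 90.8 and 133.5 CPM in anemic mice, with a log2 fold change of 0.59 ± 0.164 (SE). Ass1 stood at 77.3, 100.9 and 119.3 CPM in controls and 82.6, 122 and 363 CPM in anemic mice, where the highest value was that of anemia 2. Its log2 fold change was 0.84 (edgeR adjusted p = 0.233), and 0.14 without anemia 2 and anemia 3 (edgeR adjusted p = 0.822).

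In monocyte-like cells, Nos2 was a matter of single mice. It stood at 133.6 CPM in anemia 2, 8.6 CPM in anemia 3 and 15.05 CPM in control 2, and was 0 in the other 9 mice. Its log2 fold change was 3.10 ± 1.41 (SE; edgeR adjusted p = 0.338), and without anemia 2 it was -0.04. Over all cells, anemic mice held 3617 of the 3888 Nos2 UMIs and controls 271, and cluster 52 alone held 2614, or 67.2%. Within cluster 52, 2536 of the UMIs came from the 2193 cells of anemia 2, 60 from the 339 cells of anemia 3 and 18 from the 13 cells of control 2. Nos2 was among the genes that led this cluster, so its presence there is a description. Endothelial-like cells held 303 Nos2 UMIs, and in their cluster 35 each mouse had some, from 2 to 17. Means in that class were 2.41 ± 0.624 CPM in controls and 2.19 ± 1.41 CPM in anemic mice (SD). The log2 fold change there was -0.11 ± 0.387 (SE; edgeR adjusted p = 0.880).

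Arg2 in neutrophil-like cells, the class with its highest level, stood at 162.8, 169.9 and 212.4 CPM in controls and 119.2, 154.4 and 217.6 CPM in anemic mice. The groups overlapped throughout, and the log2 fold change was -0.17 ± 0.153 (SE; edgeR adjusted p = 0.730). None of the 7 members tested there passed, 1 had an unadjusted p under 0.05 and the lowest adjusted p was 0.191, where 0.592% of all genes were called. Of all 8777 genes tested there, 1027 had an unadjusted p under 0.05. Nos2 had 0 UMIs in the neutrophil-like cells of all 6 controls and 40 UMIs in anemic mice, of which 36 came from anemia 3, 3 from anemia 4 and 1 from anemia 1.

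The highest levels of Arg2 lay outside the named classes. Cluster 5, with 1831 control and 4389 anemic cells, stayed unnamed and was led by Csta3, Asprv1, Slc7a11, Hcar2, Clec4d, Acod1 and Il1r2. Its Arg2 level was 633.6, 705.5 and 825.9 CPM in controls and 419.7, 577.7 and 712.1 CPM in anemic mice, with overlap. The same cells held 50.5 CPM of Nos2 in anemia 2 and 22.3 CPM in anemia 3, and at most 6.7 CPM in any other mouse. Among neutrophil-like cells, Arg2 stood at 360 to 420.4 CPM in controls and 247 to 414.8 CPM in anemic mice in cluster 8, led by Retnlg and Mmp8, and at a mean of 26.1 CPM in cluster 9, led by the granule genes Camp, Ngp and Ltf. It was 13.5 CPM in cluster 10, led by the early granule genes Elane and Mpo.

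**Figure D5:**
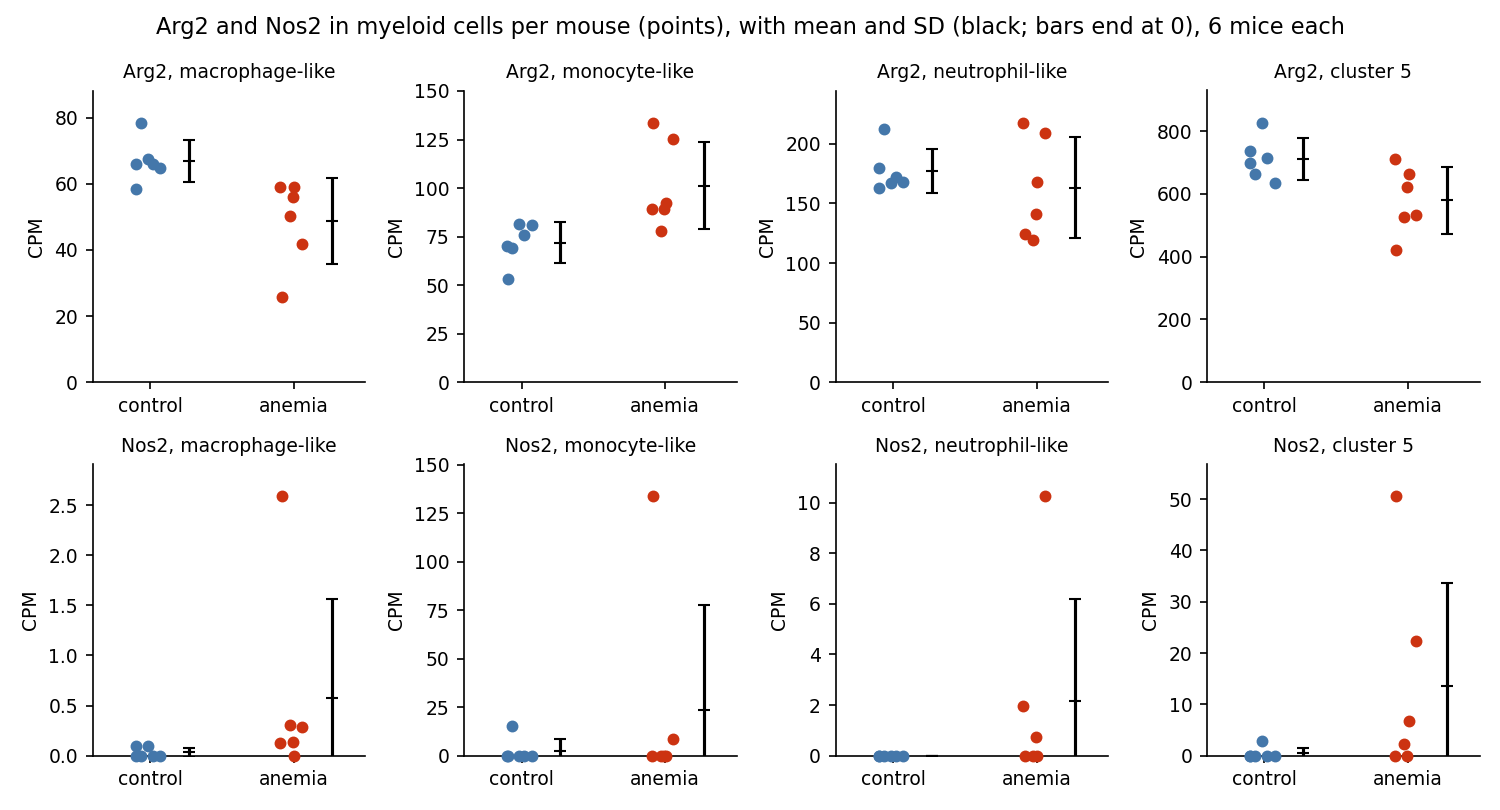
Level in CPM (vertical axes, from 0) of Arg2 and Nos2, 1 point per mouse, with the mean and SD of 6 control and 6 anemic mice in black (SD bars end at 0), in macrophage-like, monocyte-like and neutrophil-like cells and in the unnamed cluster 5. Arg2 is present in every mouse in each of the 4 groups of cells, while Nos2 is high in anemia 2 alone among monocyte-like cells, at 133.6 CPM.

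Erythroid-like cells numbered 7262 in controls and 23445 in anemic mice, and none of the 6 members tested passed in them, with 1 unadjusted edgeR p under 0.05 and a lowest adjusted p of 0.132. Of all 9950 genes tested there, 1434 had an unadjusted p under 0.05. The share of all genes called was 0.955%, with 73 higher and 22 lower, or 8 and 69 without TMM factors. Odc1, which had that lowest value, stood at 25.7, 46.9 and 102.8 CPM in controls and 23.5, 56.6 and 79.5 CPM in anemic mice, with a log2 fold change of 0.47 ± 0.140 (SE) on the TMM scale and -0.06 without it. It passed in cells in which globin was under 50% of UMIs, at 0.53 (edgeR adjusted p = 0.0264).

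Odc1 had more CPM in the early erythroid cluster than in the later ones. In cluster 51, led by Rhd, Hemgn and Car1, it stood at 187.6 to 223.6 CPM in controls and 229.4 to 321.6 CPM in anemic mice. Its log2 fold change there was 0.45 (edgeR adjusted p = 0.115), where 0.521% of genes were called. In the later erythroid clusters 27, 28 and 40 its means were 5.4, 4.4 and 10.4 CPM. Over the whole class, erythroid markers summed to 420716 to 783096 CPM in controls and 677602 to 827317 CPM in anemic mice. Such a share lowers the CPM of every other gene, and its part in the differences between clusters was not tested.

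Arginase was low in erythroid-like cells on the same CPM scale. Arg1 stood at 4.41, 10.3 and 15.7 CPM in controls and 4.55, 10.1 and 19.7 CPM in anemic mice, where the groups overlapped fully, and its log2 fold change was 0.67 ± 0.509 (SE; edgeR adjusted p = 0.590). In cluster 27 it was called at 1.33 (edgeR adjusted p = 0.0101), where 9.05% of genes were called, and in cells with globin under 50% it was -0.24. The summed hepatocyte markers in the class were 4545 to 9018 CPM in controls and 578 to 3351 CPM in anemic mice, without overlap. In the ratio seen in hepatocyte-like cells, this RNA would carry 13.99 CPM of Arg1 in controls and 13.68 CPM in anemic mice. The measured means of Arg1 in the class were 10.14 and 11.07 CPM, below that level in both groups. The part of this RNA in the Arg1 values, the call in cluster 27 included, was not tested. Arg2 had 35 UMIs in all 30707 erythroid-like cells, Nos3 had 33 and Nos2 had 9.

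In endothelial-like cells, 15197 from controls and 10771 from anemic mice, Odc1 rose and was the only one of the 9 members tested that was called. It had 84.0, 90.2 and 109.8 CPM in controls and 112.2, 143.5 and 223.3 CPM in anemic mice. Every anemic mouse lay above every control, and the log2 fold change was 0.91 ± 0.158 (SE), or 1.87-fold (edgeR adjusted p = 0.00162). It was called in 4 of the 5 clusters tested, with 0.90 in cluster 31, 1.04 in cluster 32, 0.86 in cluster 34 and 0.71 in cluster 35, and stood at 0.66 in cluster 36 (edgeR adjusted p = 0.0882). Without anemia 2 and anemia 3 the class value was 0.74 (edgeR adjusted p = 0.00197).

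Of all genes in endothelial-like cells 18.2% were called, 8.29% higher and 9.88% lower, and in 2.02% every anemic mouse lay above every control. The shares called were 12.7%, 18.6%, 16.7%, 19.7% and 2.46% in clusters 31, 32, 34, 35 and 36. Without TMM factors 852 genes were higher and 2853 lower, against 1403 and 1672, and Odc1 was called at 0.79. In this class the erythroid markers summed to 1144 to 5378 CPM in controls and 6493 to 14582 CPM in anemic mice, and the hepatocyte markers to 1814 to 2968 and 359 to 1834 CPM. Odc1 was called without doublets too, at 0.95.

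Nos3, the endothelial synthase, stood at 58.2, 64.9 and 66.6 CPM in controls and 32.7, 54.3 and 62.4 CPM in anemic mice. All but 1 of the controls lay above all anemic mice, but the log2 fold change of -0.23 ± 0.120 (SE) did not pass (edgeR adjusted p = 0.202). In cluster 35, where 19.7% of genes were called, it was called lower at -0.40 (edgeR adjusted p = 0.0174), with means of 60.8 and 42.9 CPM. Arg1 stood at 3.94, 5.42 and 9.30 CPM in controls and 3.86, 9.19 and 19.9 CPM in anemic mice, with 0.88 ± 0.308 (SE) on the log2 scale (edgeR adjusted p = 0.0612), and passed without anemia 2 and anemia 3 at 1.12 (edgeR adjusted p = 0.00902). The Arg1 means were 5.86 CPM in controls and 9.77 CPM in anemic mice. Hepatocyte marker RNA in these cells would carry 5.19 and 7.87 CPM, and its part in the Arg1 values was not tested. Asl was called in cluster 34 at 0.54 (edgeR adjusted p = 0.0495) and not in the class (0.33, edgeR adjusted p = 0.0779). Of 56 list genes tested in the class, beside 18.2% of all genes called, Gucy1b1 (1.20), the arginine transport partner Slc3a2 (0.38), Glul (0.37), Sat1 (0.34) and Nr3c1 (0.27) rose, and Gcgr (-1.23), Slc38a3 (-0.95), Dhps (-0.53) and Gatm (-0.44) fell. Gcgr was called in only 6 of 11 alternatives, and lost its call in 9 of the fits with 1 mouse left out. Nr3c1 was called in 8 of 13 alternatives and Sat1 in 9 of 13. Hepatocyte marker RNA was also lower in anemia in this class, as given above, and its part in these falls was not tested.

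Whether anemia moved a gene differently in the 2 classes with its highest levels, among the 6 classes tested, was examined by permuting the mice between groups, for each of the 9 genes. The difference passed for 3 of them (exact permutation test, two-sided, adjusted over the 9). The changes here are on log2(CPM + 1) without TMM factors and so differ from the fold changes above. Without those factors the edgeR median of all genes was -0.40 in hepatocyte-like and -0.43 in erythroid-like cells. It was -0.05 in monocyte-like and 0.09 in neutrophil-like cells, and the part of scaling in these class differences was not tested. Asl changed by 0.85 in hepatocyte-like and -0.01 in monocyte-like cells, a difference of 0.86 on the log2 scale (exact test, adjusted p = 0.0195). For Otc the difference between hepatocyte-like and erythroid-like cells was 1.43 (exact test, adjusted p = 0.0195), and in erythroid-like cells, where hepatocyte marker RNA was lower in anemia, Otc stood at 0.831 times the level that RNA would carry. Arg2 changed by -0.15 in neutrophil-like and 0.47 in monocyte-like cells, a difference of -0.63 (exact test, adjusted p = 0.0390). The differences for Ass1 (0.80, adjusted p = 0.112) and Arg1 (0.64, adjusted p = 0.262) did not pass the exact test, and with a pseudocount of 10 in place of 1 that of Arg1 was 0.99 and passed (adjusted p = 0.0195), which made 4 of 9.

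The genes whose mean levels over the 15 classes most resembled each member were ranked among 13814 genes by Pearson's r, as a description over classes that share libraries. Nearest to Arg1 were Gm29966, Nrn1 and Acat3 (r = 0.98, 0.97 and 0.97), and nearest to Arg2 were the myeloid receptors Fpr2, Csf3r and Pilrb2 (0.99, 0.98 and 0.97). Cps1 was nearest to the apolipoprotein Apoa2 and to Kng1 and Mettl7b (0.996, 0.995 and 0.995), and Otc to Acaa1b, Sult1d1 and Cyp2d10 (0.997, 0.996 and 0.996). Ass1 had less close neighbours, Fam89a, Timd2 and Cyp2c40 (0.95, 0.91 and 0.91), as did Asl with Slc37a4, Uqcrq and Glud1 (0.94, 0.92 and 0.92). Nos3 was nearest to Ano2, Smim9 and A830082K12Rik (each 0.99), Odc1 to 4930503L19Rik, Ttll12 and Gfod2 (0.89, 0.88 and 0.86) and Nos2 to 4930554G24Rik, Layn and Gm1673 (0.92, 0.91 and 0.89).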

How the data were processed

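Gene counts were measured by droplet single-cell RNA sequencing of 12 livers, 1 library per mouse. The deposited values are whole UMI counts per gene and barcode, made by the authors with Cell Ranger 7.0.0 on mm10 and filtered by them to barcodes that hold cells. The lowest barcode held 500 UMIs. The labels and the study's methods name different kit versions (3′ chemistry in both), and the study's text also gives a sampling age 1 day lower in a figure legend. Barcodes outside 500 to 50000 UMIs or with over 50% mitochondrial UMIs were dropped, and the rest were normalised and clustered with scanpy 1.11.5 (2000 variable genes, 20 components, 20 neighbours, Leiden resolution 2). Clusters were named from marker lists when at least 3 markers were raised. A cluster stayed unnamed if another class led its top 10 genes or scored alike, or if it was shallow with no marker among them. Rules against clusters led by smooth muscle genes or with over 90% called doublets were added after the clusters had been seen. These later rules left 7 clusters unnamed, with 2.32% of control and 1.72% of anemic cells. Doublets were scored against simulated pairs, with an expected rate of 0.8% per 1000 barcodes, and were kept in the main analysis and left out in an alternative.

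UMIs were summed per mouse and class in 6 classes, genes that averaged 5 or more UMIs a mouse, mitochondrial and ribosomal genes aside, were tested with edgeR 4.0.16 (quasi-likelihood, TMM factors), and p-values were adjusted over all genes of a class (Benjamini-Hochberg, 0.05). Fold changes are on the TMM scale, CPM values use all UMIs of a class. Changes compared between classes used log2(CPM + 1) without TMM factors. Levels between classes and between cells with and without Glul were compared on log2(CPM + 1) with exact sign-flip tests over 12 mice, the latter adjusted over all genes tested in the class. Intervals and tests cover these 12 mice. Every member is named, with list genes named where called, except 1 result that is not reported here. The members and lists were chosen with earlier results of these data known. The edgeR script was tested on simulated data. Alternatives were DESeq2 1.42.0, no TMM factors, other count minimums, a replicate block, a Y-linked covariate for sex, a mitochondrial limit of 10%, doublets left out, Leiden resolution 1, deeper cells, less hepatocyte RNA, a joint voom model (limma 3.58.1), each mouse left out, and, chosen after seeing the data, anemia 2 and 3 left out and single clusters. Genome positions are from GENCODE M21. The main edgeR tests did not pair mice by replicate number. Correlations of same-numbered mice ran from -0.357 to 0.473, which does not settle whether the numbers pair them.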

Additional observations from a re-analysis of the deposited data

Results flagged for a closer look

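Of 92 groups of 6 mice examined for a single value far from the rest, 9 had one, where chance alone gives about 1 in 20. In control mice, Nos3 in endothelial-like cells of control 2 stood at 58.2 CPM against 64.4 to 66.6 CPM in the others, and Arg2 in neutrophil-like cells of the same mouse at 212 CPM against 163 to 180 CPM. Control 5 stood apart in Cps1 of hepatocyte-like cells, with 1171 CPM against 900 to 965 CPM, in Arg1 of macrophage-like cells, with 12.1 CPM against 5.11 to 6.69 CPM, and in Arg1 of neutrophil-like cells, with 14.3 CPM against 3.96 to 5.58 CPM. In anemic mice, Arg1 in macrophage-like cells of anemia 6 stood at 28.5 CPM against 13.8 to 18.2 CPM, and Nos3 in hepatocyte-like cells of anemia 2 at 4.48 CPM against 0 to 1.55 CPM. Nos2 in monocyte-like cells was far from the rest in 1 mouse of each group, at 15.05 CPM in control 2 with the other 5 controls at 0, and at 134 CPM in anemia 2 against 0 to 8.58 CPM in the other anemic mice.

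The effect of anemia differed between 2 cell classes for 3 genes by the exact permutation test. The log2 difference was -0.63 for Arg2 in neutrophil-like minus monocyte-like cells and 0.86 for Asl in hepatocyte-like minus monocyte-like cells. For Otc it was 1.43 in hepatocyte-like minus erythroid-like cells. Otc in erythroid-like cells stood at 21.1 CPM in controls and 9.25 CPM in anemic mice. Hepatocyte marker RNA would carry 25.3 and 11.2 CPM there, and its part in the difference was not tested.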

How the results depend on the processing

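Arg1, Ass1 and Asl in hepatocyte-like cells and Odc1 in endothelial-like cells were called in every class-wide alternative run and with each mouse left out. The counts of genes called moved most in classes with few calls, and the cause was not tested. In erythroid-like cells, 95 genes became 227 with DESeq2 and with no filter on low counts, 52 with at least 50 UMIs, 13 with the replicate block, 148 with a Y-linked covariate, 44 without doublets, 58 at Leiden resolution 1, 54 in cells of at least 1000 UMIs, 27 with less hepatocyte RNA, 175 with globin under 50%, 36 without anemia 2 and 3, 1350 with the joint voom model and 23 to 253 with 1 mouse left out. In monocyte-like cells, 55 became 152, 104, 25, 307, 36 and 93 under the first 6 of these, 17 with less hepatocyte RNA, 126 with voom and 12 to 86 with 1 mouse left out, with 26 higher and 29 lower becoming 16 and 28 without TMM factors. In neutrophil-like cells, 52 became 109, 283, 14, 92, 32 and 91 under the same 6, 84 without anemia 2 and 3, 32 with voom and 27 to 108 with 1 mouse left out, with 9 higher and 43 lower becoming 26 and 36 without TMM factors. In macrophage-like cells, 355 became 921 with DESeq2, 223 with at least 50 UMIs, 235 with the Y-linked covariate, 974 with voom and 107 to 449 with 1 mouse left out. The Glul comparison called 5 of 9 genes without doublets in place of 8.

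Signs of values given in the text turned as follows, on the log2 scale, and uncalled members whose values are not given also turned, such as Cps1 in erythroid-like cells (-1.26 to 0.37). Without TMM factors Cps1 (-0.14) and Odc1 (-0.32) turned in hepatocyte-like cells, as did Odc1 in erythroid-like cells (-0.062). Without doublets Cps1 turned in hepatocyte-like cells (-0.081) and by Glul (0.083), Ddah2 turned (0.20) and the class difference of Nos3 turned (-0.72, and -0.14 with a pseudocount of 10). Odc1 in hepatocyte-like cells also turned with at least 50 UMIs (-0.10), at a mitochondrial limit of 10% (-0.026) and in clusters 23 (-0.21) and 25 (-0.086), and ran from -0.082 to 0.11 with 1 mouse left out. Otc turned in clusters 6, 25 and 26 (-0.074, -0.14 and -0.090), Odc1 in erythroid cluster 28 (-0.042), Arg1 in erythroid-like cells with globin under 50% (-0.24), and Arg2 in neutrophil-like cells with less hepatocyte RNA (0.088) and in cluster 9 (0.0086). Nos2 in monocyte-like cells stood at -0.37 with voom and at -0.041 to 9.71 with 1 mouse left out. Replicate numbers are shared between groups, and whether they pair the mice was not settled. In the 6 classes, 1 to 3 of 6 controls and 0 to 3 of 6 anemic mice correlated best with their own number. With the replicate block, Arg2 (0.57) and Nos2 (3.35) in monocyte-like cells and Arg1 (0.79) in endothelial-like cells were called, where Nos2 was above 0 in 3 mice only and rests on anemia 2. Calls were gained for Odc1 in macrophage-like cells with DESeq2 (adjusted p = 0.0399), Odc1 in erythroid-like cells with voom (0.00839) and Arg1 in endothelial-like cells with DESeq2 (0.0299) and voom (0.00547). The endothelial Arg1 level lay near that expected from hepatocyte marker RNA, as given above. With 1 mouse left out, 698 comparisons gave the same call, 74 lost and 4 gained one, and 4 turned sign. Under other alternatives these counts were 760, 91, 20 and 20. List genes entered this tally only if called in the main fit, so they could lose a call but not gain one. Nos2, Nos3 and Arg2 had under 100 UMIs each in erythroid-like and hepatocyte-like cells, so their values there carry a large counting error.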
